A study of Mus musculus with 4 samples.

Results

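The 39 genes described here encode parts of the photoreceptor cilium: 13 intraflagellar transport (IFT) genes, 5 motor genes, 11 genes linked to Bardet-Biedl syndrome (BBS), 6 genes of the connecting cilium and 4 genes of cargo delivery or ciliary kinase activity. They were chosen by name and not by a filter on values, from a list written with earlier results of these data known. All 39 were found among the 21834 genes of the tables. The data were poly(A) RNA sequencing of 4 libraries from mouse retina at postnatal day 12. Dissociated retinal cells were stained for Cd73, a surface enzyme of rod photoreceptors and their precursors, and sorted into positive (Cd73P) and negative (Cd73N) cells. Each fraction was taken from wild-type and from Ezh2-cKO mice, so there was 1 library per group and no replicate check. Both genotypes carried the background label slc:ICR. In the Ezh2-cKO mice a floxed Ezh2, which encodes a histone methyltransferase of the Polycomb group, was recombined by DKK3-Cre in retinal progenitors from early embryonic life. Both fractions hold descendants of these progenitors, but not every sorted cell need be one. The controls were normal littermates. The number of retinas pooled at this age is not given in the sources used here.

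A rod keeps its photopigment in the outer segment, a modified primary cilium joined to the cell body by a thin connecting cilium. Every protein of the outer segment has to pass this bridge. IFT trains carry cargo along the ciliary microtubules, kinesins drive them towards the tip and cytoplasmic dynein brings them back, while the BBSome, a coat-like complex of BBS proteins, helps to move membrane proteins in and out. Loss of many of these genes causes retinal degeneration in people and in mice.

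Reference promoter sequences give a first view of what the genes share. RefSeq windows of 300 bases, 250 before and 50 after the annotated start, held promoters for 36 of the 39 genes. A gene with several annotated starts had a window for each, and a match in any of them was counted. The letters GTTGCC form one arm of the X-box, the longer site that RFX factors bind at many ciliary genes. This arm, without a requirement for the other, was found on either strand in 14 of the 36 (38.9%), against 14.1% of the 27025 genes of the table. Among other cilium genes, listed separately, it was found in 20 of 54 (37.0%). The CRX and OTX2 letters TAATCC, which photoreceptor homeodomain factors bind, occurred in 3 of 36 (8.33%), against 8.14% of all genes. The letters TGCTGA, one arm of the longer site of the rod-determining factor NRL, occurred in 6 of 36 (16.7%), against 21.7% of all genes. No match of one motif overlapped a match of another in these promoters, and 19 of the 36 genes held none of the 3 motifs in any window. A match of 6 letters is a description of sequence and not evidence of binding.

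In 7 genes an X-box arm lay upstream of the start, and these windows are printed because, of the 3 motifs, this arm had the largest excess over its share of all promoters, as it did in the other cilium genes. Capitals mark GTTGCC or its reverse complement GGCAAC. Each window runs 5′ to 3′ on the strand of the gene and was placed on build mm9 by an exact match of the 250 upstream bases.
Bbs7, minus strand, chr3:36512407-36512452: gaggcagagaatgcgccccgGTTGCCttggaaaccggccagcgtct
Ift57, plus strand, chr16:49699300-49699372: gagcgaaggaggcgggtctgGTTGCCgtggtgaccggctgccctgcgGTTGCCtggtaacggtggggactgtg
Ift27, minus strand, chr15:78004512-78004540: gagaaggcgggttgatgatgGTTGCCagg
Ift140, plus strand, chr17:25152902-25152947: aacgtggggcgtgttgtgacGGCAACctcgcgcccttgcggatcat
Traf3ip1, plus strand, chr1:93391146-93391191: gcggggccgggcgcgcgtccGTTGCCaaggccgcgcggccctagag
Kif3a, plus strand, chr11:53380753-53380798: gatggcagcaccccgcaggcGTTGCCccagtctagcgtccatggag
Kif17, plus strand, chr4:137818073-137818118: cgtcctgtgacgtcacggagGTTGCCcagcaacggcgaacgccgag
Ift57 held 2 X-box arms in this stretch. These 7 genes did not share a direction between fractions: Bbs7, Ift57 and Traf3ip1 were at least 1.5-fold higher in Cd73P in both genotypes and Kif3a was lower in Cd73P under Ezh2-cKO, while Ift27, Ift140 and Kif17 passed the threshold in neither genotype.

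The promoter of Rpgrip1 is printed as a whole upstream window because Rpgrip1 had the largest difference between fractions in wild type. It had no X-box arm, but held the reverse complement of the NRL arm and that of the CRX and OTX2 letters, both in capitals.
Rpgrip1, plus strand, chr14:52730328-52730577: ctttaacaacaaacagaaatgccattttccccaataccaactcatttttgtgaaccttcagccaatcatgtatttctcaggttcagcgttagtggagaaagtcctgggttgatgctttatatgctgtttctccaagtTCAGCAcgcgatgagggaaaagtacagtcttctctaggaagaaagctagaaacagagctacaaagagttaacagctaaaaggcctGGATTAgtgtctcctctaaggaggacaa
The other genes with TAATCC were Mak and Bbs1, shown with the 20 bases on either side. In Mak it lay in the window of an inner annotated start (chr13:41165835-41166084), inside the gene (chr13:41120489-41175075). The window at the outer start of Mak (chr13:41175076-41175325) did not hold these letters.
Mak, minus strand, chr13:41166027-41166072: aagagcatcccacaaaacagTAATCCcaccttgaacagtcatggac
Bbs1, minus strand, chr19:4906799-4906844: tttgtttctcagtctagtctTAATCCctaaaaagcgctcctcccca
All 3 genes with TAATCC were higher in Cd73P in both genotypes, as were 22 of all 36 genes with a promoter in the table. Of these 22 genes, 10 held an X-box arm (45.5%), against 4 of the 14 remaining genes (28.6%). The NRL arm was held by 4 of the 22 (18.2%) and by 2 of the 14 (14.3%). A link between these letters and the fractions was not tested.

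Values are FPKM, fragments per unit of exon length after allowing for how many reads a library had mapped, so levels of different genes are compared per length. The 4 values of a gene are always given in the order wild-type Cd73N, Ezh2-cKO Cd73N, wild-type Cd73P, Ezh2-cKO Cd73P. A difference is one of log2(FPKM + 1), which understates the change of low genes, and a gene was counted as higher or lower where it differed by at least 1.5-fold on this scale. Standard errors (SE) cover counting error within a library only. The sort held at the level of RNA: Nt5e, which encodes Cd73, was at 0.844, 0.609, 125 and 123 FPKM. Ezh2 was at 14.1, 15.9, 5.38 and 3.45 FPKM. Its difference between Ezh2-cKO and wild type was -0.52 (SE 0.080) in Cd73P and 0.17 (SE 0.056) in Cd73N, within the 1.5-fold threshold in both fractions. A gene-level FPKM does not separate the floxed exons from the rest, and the genotype of each library is therefore given as labelled. Depth relative to wild-type Cd73N, inferred from the deposited bounds, was at most 1.17 in the other libraries. The 15 rod markers with a usable status in every library were all higher in Cd73P in both genotypes, and the 10 cone and 12 Müller glia markers were all lower. The female transcript Xist was at 52.2, 240, 47.0 and 95.6 FPKM and 4 Y-linked genes summed to 26.8, 0.716, 27.9 and 0.496 FPKM, so genotype and the sex of the pooled animals cannot be told apart.

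Most of the cilium genes were higher in the rod fraction, and 38 of the 39 had an FPKM of at least 1 in every library. In wild type, 26 were higher and 4 lower in Cd73P, whereas of all genes compared 9.08% were higher and 27.9% lower. Among genes with an FPKM of at least 1 in either library, 15.4% were higher and 45.9% lower. The median difference of the 39 genes was 1.17, against -0.050 for all genes and -0.47 for genes with an FPKM of at least 1. Under Ezh2-cKO, 27 were higher and 4 lower in Cd73P (median 1.01), where 8.41% of all genes were higher and 29.1% lower, or 13.8% and 45.5% of genes with an FPKM of at least 1. The same 25 genes were higher in both genotypes, 3 were lower in both (Ift20, Kifap3 and Tulp3), and none was higher in one and lower in the other. Differences in the 2 genotypes, which rest on separate libraries, went together across the 39 genes (Pearson r 0.94, Spearman 0.95). This is a description across genes, which are not independent replicates and share their libraries. FPKM was not scaled between libraries, and dividing each library by its median ratio to wild-type Cd73N shifted the genes with an FPKM of at least 1 by 0.28 in wild type and by 0.24 under Ezh2-cKO. After that scaling 28 cilium genes were higher and 3 lower in wild type, while 13.4% of all genes were higher and 22.4% lower. In bulk samples, fewer cells of a type and less RNA per cell cannot be told apart.

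**Figure D1:**
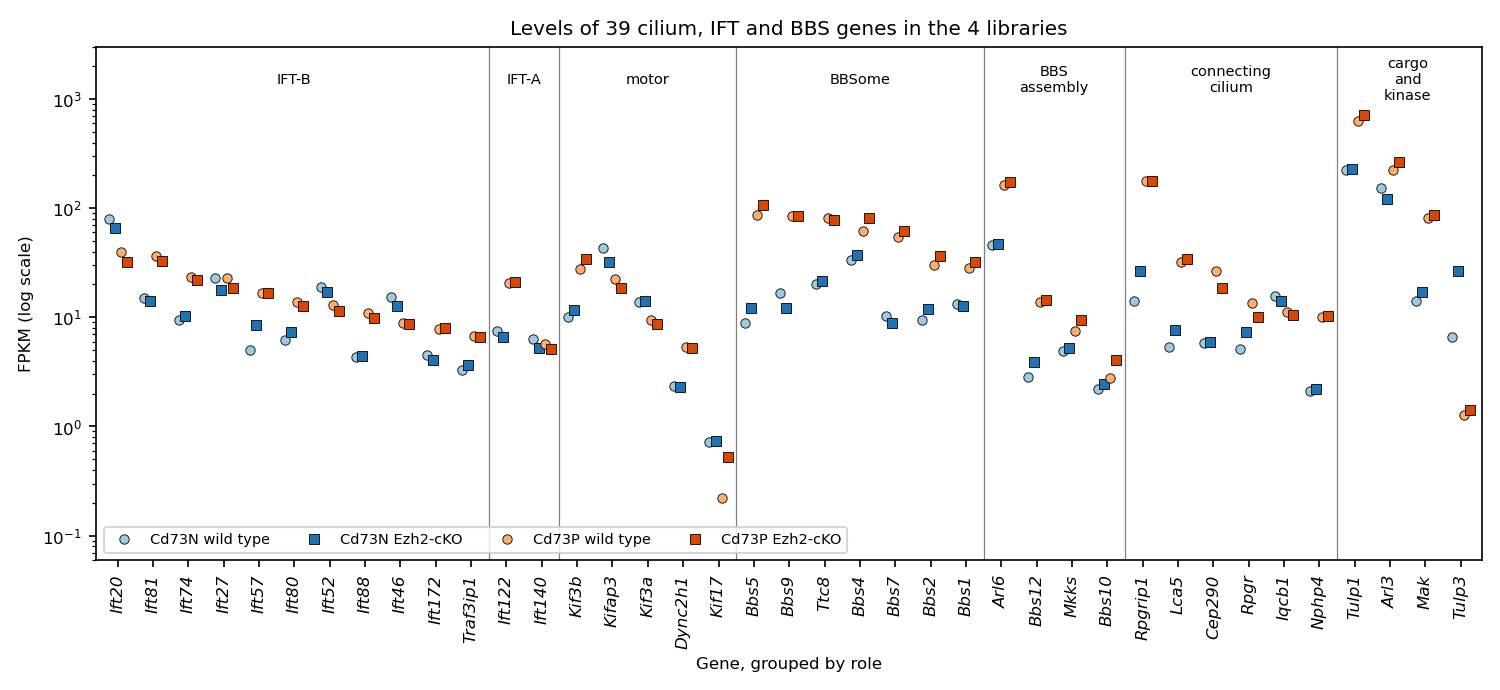
Level of each of the 39 genes in the 4 libraries, in FPKM on a log axis, grouped by role. Each point is 1 library, circles are wild type and squares Ezh2-cKO, blue is Cd73N and orange Cd73P. All 7 BBSome genes have both Cd73P points above both Cd73N points, while Ift20, Kifap3 and Tulp3 show the opposite order.

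**Figure D2:**
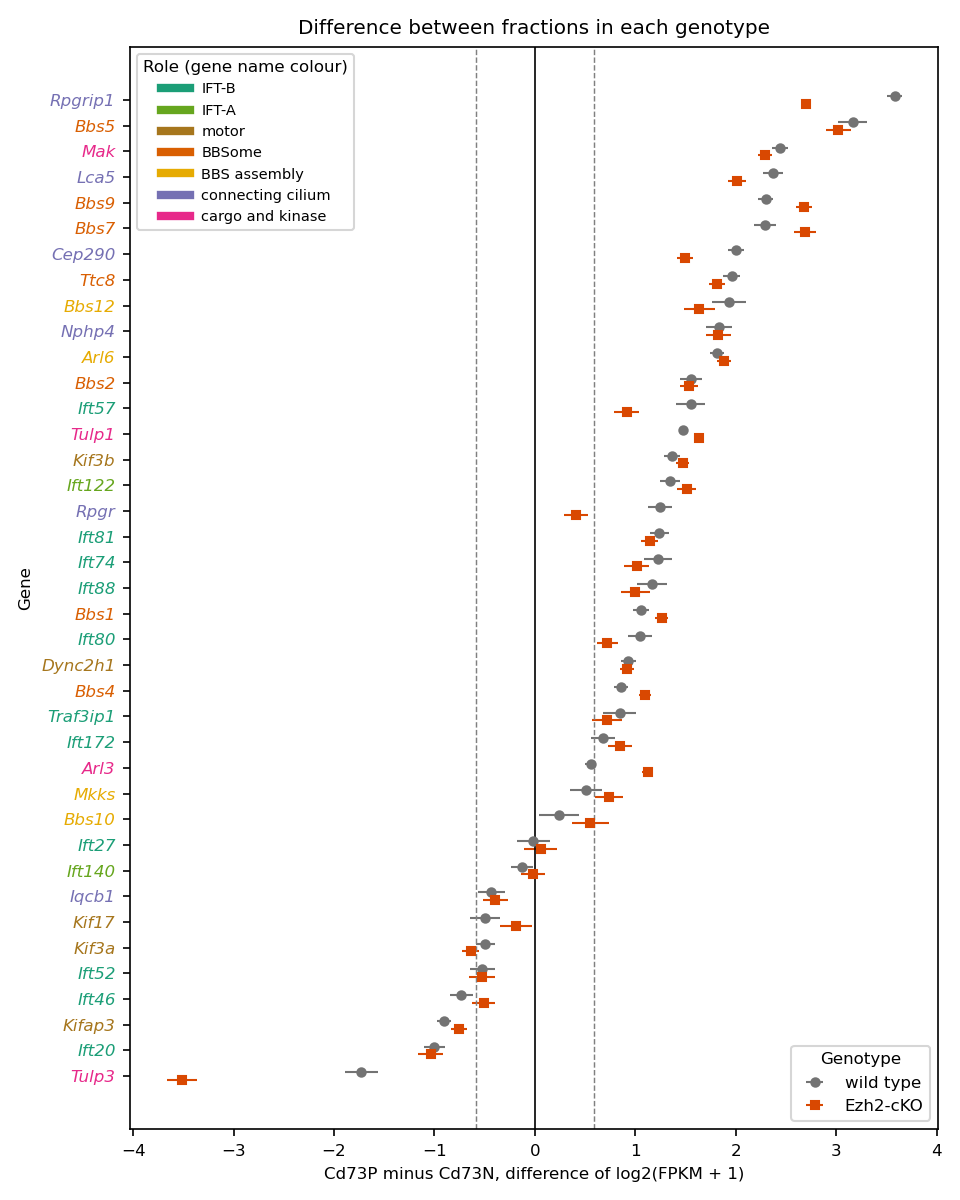
Difference between Cd73P and Cd73N in log2(FPKM + 1) for each gene, in wild type (grey circles) and Ezh2-cKO (orange squares). Bars are 1.96 counting standard errors on either side, dashed lines mark the 1.5-fold threshold, and gene names are coloured by role. Rpgrip1 (3.58 in wild type) and Bbs5 (3.17) lie at the top and Tulp3 (-1.73 and -3.52) at the bottom.

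The IFT-B complex, the larger part of the train, was divided. Of its 11 listed genes 7 were higher and 2 lower in Cd73P in wild type, and 7 were higher and 1 lower under Ezh2-cKO. The 7 higher genes were Ift57, Ift74, Ift80, Ift81, Ift88, Ift172 and Traf3ip1, with differences of 0.68 (Ift172) to 1.55 (Ift57) in wild type. Ift81, which with its partner Ift74 forms the tubulin-binding module, was at 15.0, 14.2, 36.7 and 32.6 FPKM. Ift88, a core subunit whose partial loss disturbs outer segments, was at 4.35, 4.39, 11.0 and 9.79 FPKM. Both Cd73P libraries lay above both Cd73N libraries for each of these genes. Traf3ip1, which encodes IFT54, had the lowest level of the complex with 3.27, 3.63, 6.68 and 6.63 FPKM.

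Ift20, which links IFT with vesicles from the Golgi, had the highest level of the listed IFT-B genes in 3 of the 4 libraries. Ift81 was just above it in Ezh2-cKO Cd73P. Rabl5, an IFT-B gene outside the 39, was above it in both Cd73P libraries (50.45 and 42.7 FPKM). Ift20 ran against most of the listed IFT-B genes. It was at 80.0, 66.5, 39.5 and 31.9 FPKM, a difference between fractions of -1.002 (SE 0.052) in wild type and -1.04 (SE 0.064) under Ezh2-cKO. Both Cd73N libraries were above both Cd73P libraries. Ift46, a core subunit, showed the same order with 15.3, 12.7, 8.80 and 8.60 FPKM and passed the threshold in wild type (-0.73) but not under Ezh2-cKO (-0.51). Ift52, its neighbour in the core, was at 18.9, 17.02, 12.9 and 11.5 FPKM and stayed within the threshold (-0.52 and -0.53). Ift27, a small GTPase linked to BBSome traffic, was level between fractions at 23.0, 17.9, 22.7 and 18.7 FPKM (-0.01, SE 0.082, and 0.06, SE 0.082). FPKM of Ift20 and Ift27 lay above the deposited upper bound in every library, so their standard errors come from intervals that do not hold the value.

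The 2 listed IFT-A subunits, which serve return transport, differed from each other. Of 3 further IFT-A genes outside the list (Wdr35, Wdr19 and Ttc21b), 2 were higher in Cd73P in wild type and 3 under Ezh2-cKO. The exception in wild type was Ttc21b (0.45). Ift122 was at 7.53, 6.67, 20.6 and 20.9 FPKM, higher in Cd73P by 1.34 (SE 0.051) in wild type and 1.51 (SE 0.049) under Ezh2-cKO. Ift140 was at 6.28, 5.22, 5.65 and 5.14 FPKM, with differences of -0.13 and -0.02 that changed sign when the libraries were scaled by their median ratio or their FPKM sum. The Ift140 locus overlaps that of Tmem204, and the sources used here name no strand-specific count. Across the 39 genes the length of the longest annotated transcript had a Spearman correlation with the difference of 0.061 in wild type and -0.013 under Ezh2-cKO. Over all genes with a length and an FPKM of at least 1 in either library it was 0.175 (11969 genes) and 0.101 (12434 genes). These correlations are given as a description.

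The subunits of the anterograde motor also went in different directions. Kif3b, a motor subunit of heterotrimeric kinesin, was higher in Cd73P with 10.1, 11.7, 27.6 and 34.3 FPKM, by 1.37 in wild type and 1.47 under Ezh2-cKO. Its partner motor subunit Kif3a was at 13.7, 14.0, 9.44 and 8.66 FPKM (-0.49 and -0.64), past the threshold only under Ezh2-cKO. The accessory subunit Kifap3 was at 43.0, 32.3, 22.5 and 18.7 FPKM and was lower in Cd73P in both genotypes (-0.91, SE 0.037, and -0.75, SE 0.042). In each fraction Kif3b therefore stood differently to Kif3a: below it in both Cd73N libraries and above it in both Cd73P libraries. Dync2h1, the heavy chain of the return motor, was higher in Cd73P with 2.33, 2.29, 5.35 and 5.20 FPKM (0.93 and 0.92). Kif17, a second ciliary kinesin, was at 0.716, 0.737, 0.219 and 0.526 FPKM, the lowest level of all 39 genes.

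All 7 listed BBSome genes were higher in Cd73P in both genotypes, with differences of 0.86 to 3.17 in wild type and a median difference of 1.96 in wild type and 1.81 under Ezh2-cKO. Bbs5, a membrane-binding subunit, was at 8.78, 12.2, 86.8 and 106 FPKM, which is a 9.88-fold ratio in wild type and an 8.69-fold ratio under Ezh2-cKO. Bbs5 lies at chr2:69485312-69505626 (mm9, as are all gene positions given here). Its difference of 3.17 (SE 0.074) in wild type and 3.02 (SE 0.064) under Ezh2-cKO took it from the lowest BBSome level in wild-type Cd73N to the highest in both Cd73P libraries. Bbs9 was at 16.6, 12.3, 85.5 and 84.3 FPKM, and Bbs7 at 10.3, 8.81, 54.2 and 62.4 FPKM. Their differences were 2.30 and 2.29 in wild type and 2.68 and 2.69 under Ezh2-cKO. Ttc8, also known as a BBS subunit, was at 20.04, 21.5, 80.8 and 77.9 FPKM. The smallest differences in wild type were those of Bbs4 (33.3, 37.3, 61.3 and 81.2 FPKM) and Bbs1 (13.2, 12.8, 28.5 and 32.0 FPKM), at 0.86 and 1.06. A further small BBSome subunit that is not among the 39 genes, Bbip1, was level between fractions at 26.4, 22.1, 26.2 and 23.2 FPKM (-0.01 and 0.07). The summed level of the 7 genes was 112 and 117 FPKM in Cd73N and 427 and 481 FPKM in Cd73P. FPKM lay above the deposited upper bound for Bbs4 in every library and for Bbs5 in all but wild-type Cd73N. It did so for Bbs2 and Bbs7 in both Cd73P libraries. Standard errors of these genes come from intervals that do not hold the value.

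Of the 4 genes that assemble or recruit the BBSome, 2 were higher in Cd73P in wild type and 3 under Ezh2-cKO, and all 4 differences were above 0. Arl6, the small GTPase that brings the complex to the membrane, was at 45.8, 46.9, 163 and 175 FPKM and higher in Cd73P by 1.81 and 1.88. Its locus overlaps that of 4930547E14Rik and its FPKM lay above the upper bound in every library. Of the 3 chaperonin-like genes, Bbs12 was at 2.85, 3.92, 13.7 and 14.3 FPKM and higher in Cd73P (1.93 and 1.64). Mkks was at 4.91, 5.28, 7.44 and 9.46 FPKM, with a difference of 0.51 in wild type and, past the threshold, 0.74 under Ezh2-cKO. Bbs10 had the lowest level, 2.21, 2.43, 2.79 and 4.04 FPKM, and stayed within the threshold in both genotypes (0.24 and 0.55).

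Of the 6 connecting cilium genes 5 were higher in Cd73P in wild type and 4 under Ezh2-cKO. Rpgrip1, which anchors RPGR in the connecting cilium, was at 14.0, 26.3, 179 and 176 FPKM. The ratio between fractions was 12.8-fold in wild type (difference 3.58, SE 0.036) and 6.70-fold under Ezh2-cKO (2.70, SE 0.025), the 2 genotypes being separated in Cd73N and not in Cd73P. Rpgrip1 lies at chr14:52730578-52781014 and overlaps Supt16h. Lca5, which encodes lebercilin, was at 5.40, 7.67, 32.1 and 34.0 FPKM (2.37 and 2.02). Cep290, a transition zone protein whose loss causes early blindness in people, was at 5.87, 5.94, 26.6 and 18.6 FPKM (2.01 and 1.499). Nphp4, with the lowest level in 3 of the 4 libraries in this group, was at 2.09, 2.19, 10.01 and 10.3 FPKM (1.83 in both genotypes). Iqcb1, a partner of Cep290, was the exception at 15.6, 14.2, 11.3 and 10.6 FPKM (-0.43 and -0.39), and its locus overlaps Eaf2.

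Rpgr, the X-linked gene most often mutated in X-linked retinitis pigmentosa, differed between genotypes. It was at 5.15, 7.40, 13.6 and 10.2 FPKM, and its difference between fractions was 1.25 (SE 0.062) in wild type and 0.41 (SE 0.059) under Ezh2-cKO. Both Cd73P libraries were above both Cd73N libraries, but the Ezh2-cKO pair lay inside the wild-type pair. Rpgr lies at chrX:9735342-9793921, and Xist differed between these libraries as given above. The part of sex in these values was not tested.

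The cargo genes held both the highest levels and the largest opposite difference. Tulp1, a photoreceptor protein needed for protein transport to the outer segment, was at 226, 230, 629 and 714 FPKM (1.47 and 1.63), the highest of the 39 genes in every library. Arl3, the GTPase that releases lipid-anchored cargo in the cilium, was at 153, 121, 226 and 266 FPKM. Its difference was 0.56 (SE 0.029) in wild type, just inside the threshold of 0.58, and 1.12 (SE 0.027) under Ezh2-cKO. Both genes lay above their upper bound in every library. Mak, a kinase that restrains cilium length in photoreceptors, was at 14.1, 16.9, 81.1 and 87.0 FPKM (2.44, SE 0.042, and 2.29, SE 0.036).

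Tulp3, an adaptor that brings membrane receptors into cilia together with IFT-A, was the gene most depleted from the rod fraction. It was at 6.56, 26.6, 1.29 and 1.41 FPKM, a difference of -1.73 (SE 0.084) in wild type and -3.52 (SE 0.075) under Ezh2-cKO. The 4 libraries fell in 3 levels, with the Cd73N library labelled Ezh2-cKO above wild-type Cd73N and both Cd73P libraries together at the bottom. Tulp3 lies at chr6:128271179-128305869.

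Cilium genes were depleted from Cd73N far less than rod markers were. Cd73N levels of the 39 genes had a median of 40.8% of the Cd73P level in wild type (7.84% to 511%) and 45.7% under Ezh2-cKO (11.5% to 1882%). For the 15 rod markers the median was 2.01% (0.945% to 18.1%) and 1.35% (0.319% to 14.6%). In wild type 4 genes lay within the range of the rod markers: Rpgrip1 (7.84%), Bbs5 (10.1%), Lca5 (16.8%) and Mak (17.4%). In Cd73N the cone markers summed to 4721 and 6078 FPKM, against 422 and 200 FPKM in Cd73P, and the bipolar markers to 2412 and 1394 FPKM, against 219 and 69.6 FPKM. Which cells of Cd73N carried the cilium transcripts was not tested.

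**Figure D3:**
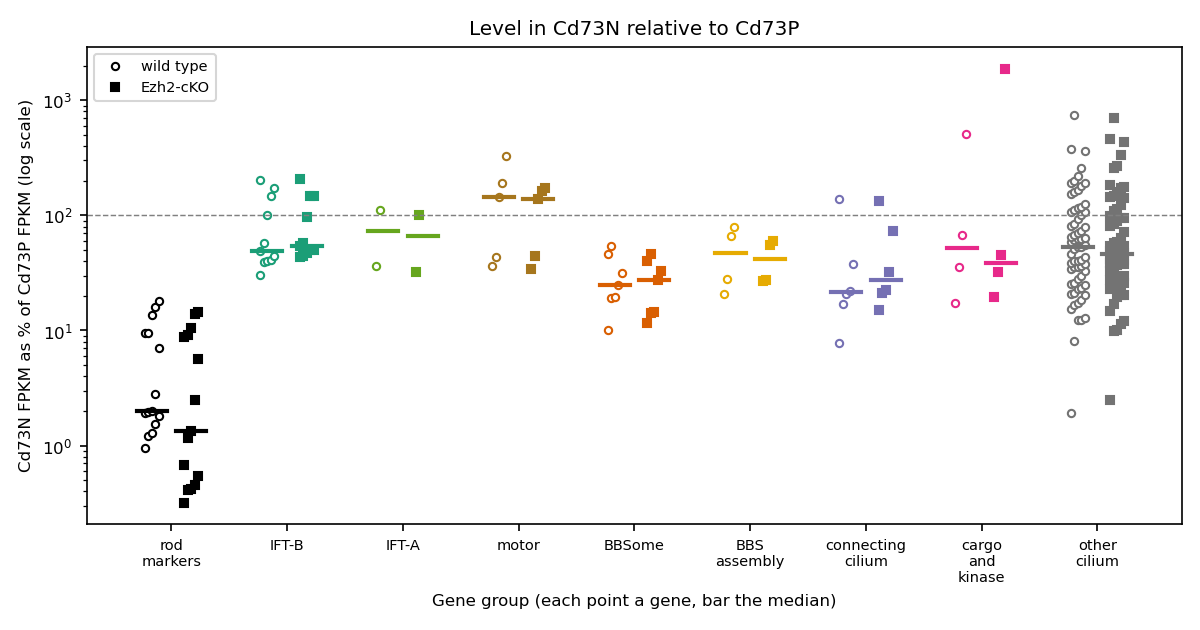
Cd73N level as a percent of the Cd73P level, on a log axis, for rod markers, the 7 role groups and the list of other cilium genes. Each point is 1 gene, open circles are wild type and filled squares Ezh2-cKO, bars are medians and the dashed line is an equal level. The rod markers have a median of 2.01% in wild type, while BBSome genes lie between 10.1% and 54.4%.

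Between genotypes 3 cilium genes passed the threshold in Cd73N and 0 in Cd73P, and whether the fractions differ in this was not tested. In the Cd73N library labelled Ezh2-cKO, 3 of the 39 genes (7.69%) were higher than in wild type, near the 7.19% of all genes compared. The number lower was 0, where 1.71% of all genes were lower. The median difference was 0.030, against 0 for all genes. Among genes with an FPKM of at least 1 in either library, 11.6% were higher and 2.86% lower. Dividing the libraries by their FPKM sum moved the shares of all genes compared from 7.19% to 9.36% higher and from 1.71% to 0.912% lower. The 3 and 0 were left unaltered.

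The 3 genes were Tulp3, Rpgrip1 and Ift57. Tulp3, at 6.56 and 26.6 FPKM, was higher by 1.87 (SE 0.057), a 4.05-fold ratio. Rpgrip1 was at 14.0 and 26.3 FPKM, higher by 0.87 (SE 0.042). Ift57, a peripheral IFT-B subunit at chr16:49699407-49765239, was at 4.99 and 8.44 FPKM, higher by 0.66 (SE 0.079). In Cd73P the same genes differed by 0.08, -0.02 and 0.02. Just under the threshold in Cd73N were Rpgr (0.45), Lca5 (0.44) and Bbs5 (0.43). At the lower end were Kifap3 and Bbs9, both at -0.40, and Ift27 at -0.34. The Tulp3 value of the Cd73N library labelled Ezh2-cKO lay above its upper bound.

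Marker lists moved between the Cd73N libraries as well. All 12 Müller glia markers were higher under Ezh2-cKO, from a sum of 1123 to 5769 FPKM, with none of the 12 at 0 in either library. Of the 10 bipolar markers 7 were lower, and of the 10 cone markers 3 were higher. Of the 16 rod markers measurable in Cd73N, 8 were lower. Of the 8 microglia markers 4 were higher. The part of these cell types in the values of Tulp3, Rpgrip1 and Ift57 was not tested.

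In Cd73P 0 of the 39 genes were higher and 0 lower under Ezh2-cKO, where 2.27% of all genes were higher and 2.38% lower, or 4.33% and 4.53% of genes with an FPKM of at least 1 in either library. The median difference was 0.017 and the range was -0.49 (Cep290, SE 0.034) to 0.41 (Bbs10, SE 0.095). By counting error alone 24 of the 39 differences were beyond 2 SE. The largest positive values were those of Bbs10, Bbs4 (0.40), Kif17 (0.32) and Mkks (0.31), and the most negative those of Cep290, Rpgr (-0.39) and Ift20 (-0.30). Of the 7 BBSome genes 5 had values above 0 and of the 11 IFT-B genes 2 did, with medians of 0.20 and -0.11. Marker lists differed between the Cd73P libraries too. Under Ezh2-cKO 8 of 10 cone markers (sum 422 and 200 FPKM) and 8 of 10 bipolar markers (219 and 69.6 FPKM) were lower, and 8 of 12 Müller glia markers (117 and 243 FPKM) were higher. Of the 15 rod markers 2 were higher. The part of these cells in the values above was not tested. None of the 39 genes passed the threshold, and with 1 library per group the spread between animals is unknown.

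**Figure D4:**
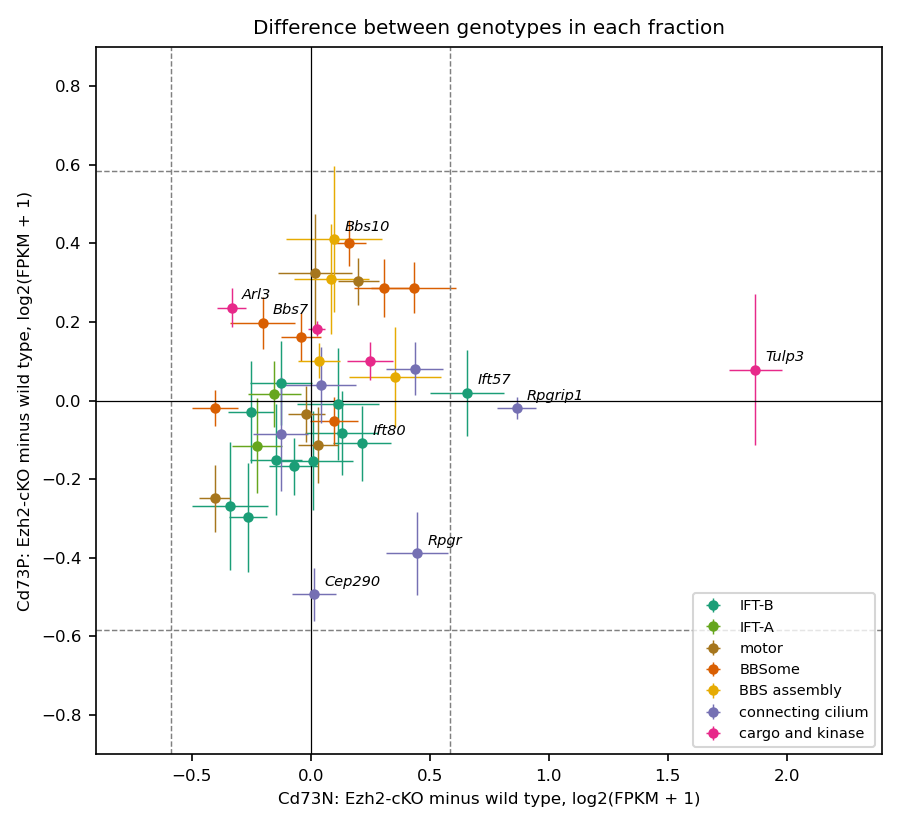
Difference between Ezh2-cKO and wild type in log2(FPKM + 1), in Cd73N (horizontal) and Cd73P (vertical), for each of the 39 genes, coloured by role. Bars are 1.96 counting standard errors on either side and dashed lines mark the 1.5-fold threshold. Tulp3 (1.87), Rpgrip1 (0.87) and Ift57 (0.66) lie past the threshold in Cd73N and no gene does in Cd73P.

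Other genes of the cilium, listed separately, gave a background for the 39. Of 71 listed, 67 were found, and 39 were higher and 9 lower in Cd73P in wild type (median 0.84), with 43 higher and 9 lower under Ezh2-cKO (median 1.02). The list shares Rp1, an axonemal microtubule protein, with the rod markers. Rp1 was at 12.9, 16.1, 670 and 641 FPKM and was the highest by difference in both genotypes (5.59 and 5.23). Also among the highest were Fam161a (2.96), a ciliary microtubule protein, in wild type, and under Ezh2-cKO Rp1l1 (3.04) and the GTPase Arl13b (3.02). The lowest were the GTPase Arl2 (-1.83), the ubiquitin ligase Trim32 (-1.72) and Rab3ip (-1.08) in wild type, and Trim32 (-1.61), Arl2 (-1.37) and the lipid-cargo carrier Unc119b (-1.22) under Ezh2-cKO. The remaining dynein-2 genes were higher in 3 of 4 and the remaining transition zone genes in 14 of 21 in wild type. Of the 6 remaining BBS-linked genes 2 were higher and 3 lower in wild type (median -0.36), the lower ones being Trim32, Rab8a (-0.71) and Rab3ip, and 2 were higher and 1 lower under Ezh2-cKO (median -0.22). The remaining lipid-cargo genes were higher in 3 and lower in 4 of 11.

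Between genotypes, 7.19% of all genes were higher and 1.71% lower in Cd73N, and 2.27% and 2.38% in Cd73P. Of the 67 other cilium genes, 0 were higher and 2 (2.99%) lower in Cd73N, Rab3ip (-0.66) and the rootlet gene Crocc (-0.59). Tctex1d2 followed at -0.44, and the upper end was held by Cc2d2a (0.58) and Gpr98 (0.48). In Cd73P 1 was higher, Cep164 (0.60), a gene of the distal appendages, and 1 lower, Unc119b (-1.20), which was at 12.8 and 4.99 FPKM. Ttc30a2 (0.49) and Gpr98 (0.45) were next at the upper end, and Cetn3 (-0.28) and Rabl5, the IFT22 gene (-0.24), at the lower.

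The RFX factors and genes of motile cilia were set beside them. Rfx1 was at 4.04, 4.75, 13.6 and 14.9 FPKM, Rfx2 at 0.281, 0.537, 3.04 and 5.33 FPKM and Rfx3 at 3.31, 4.34, 10.1 and 6.74 FPKM. These 3 were higher in Cd73P in wild type, whereas Rfx5 and Rfx7 were lower and Rfx6 was listed at 0 in all 4 libraries. Of the 12 motile cilium genes found, 3 were higher and 3 lower in Cd73P in wild type. Foxj1, which drives motile cilium formation, was at 2.18, 5.91, 1.46 and 2.72 FPKM, with a difference of 1.12 between the Cd73N libraries.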

How the data were processed

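Poly(A) RNA libraries (1 per group, 4 in all) were sequenced as 36-base single-end reads. The authors aligned the reads to mm9 with TopHat2 2.0.8b (coverage search, at most 50 hits allowed) and obtained FPKM from Cufflinks 2.1.1 at default settings, and deposited a table per library with FPKM, a lower and an upper bound and a status. These versions, and bcl2fastq 1.8.4, are those of the submitters' processing notes. The bounds gave the relative depth over 6272 genes, and absolute depth is unknown.

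Tables were joined by gene name, because their rows are in different orders. The 631 rows of 234 repeated symbols were added up within each symbol, and 724 symbols of small RNAs were dropped. Pairs with a status other than OK were left out. Differences of log2(FPKM + 1) were computed with pandas 2.3.3 and numpy 2.4.6 in Python 3.11.15, called at 1.5-fold, the study's threshold, with SE from the bounds (width taken as 4 SE). The code for the calls was checked on simulated counts that held counting error only. This check says nothing about the spread between animals. With 1 library per group there is no test and no p-value. Values for all 4 libraries are printed for genes past the threshold between genotypes, the 5 highest and 5 lowest between fractions in each genotype, and the highest and lowest level of each role. For most other members they are printed too, which was decided after the values were seen, and so was the naming of RFX and motile cilium genes. Some genes that this rule would name are not reported here. The genes and lists were chosen with earlier results of these data known. Promoters came from a RefSeq table on GRCm38.p6, and the mm9 positions from an exact match. Every window of the 36 genes matched 1 place. Transcript lengths were from GENCODE M1. Alternatives were other pseudocounts, scalings, thresholds, filters and statuses.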

Additional observations from a re-analysis of the deposited data

Results flagged for a closer look

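In 4 of the 39 genes the Ezh2-cKO and wild-type libraries differed in opposite directions in the 2 fractions, each beyond 2 counting standard errors. The difference between the fractions was not tested, since there is 1 library per group. Rpgr was higher under Ezh2-cKO in Cd73N (0.45, SE 0.066) and lower in Cd73P (-0.39, SE 0.054), so that the difference in Cd73P was -0.84 relative to that in Cd73N. Arl3 was lower in Cd73N (-0.33, SE 0.031) and higher in Cd73P (0.24, SE 0.025), a contrast of 0.57. Bbs7 was lower in Cd73N (-0.20, SE 0.070) and higher in Cd73P (0.20, SE 0.034), a contrast of 0.40. Ift80, an IFT-B subunit, was at 6.22, 7.38, 13.9 and 12.8 FPKM, higher in Cd73N (0.21, SE 0.062) and lower in Cd73P (-0.11, SE 0.049), a contrast of -0.32. None of these single differences reached 1.5-fold. FPKM was not scaled here, and median scaling shifted the genes with an FPKM of at least 1 by 0.078 in Cd73N and 0.040 in Cd73P. For Bbs7 in Cd73N and Ift80 in Cd73P the margin over 2 SE was smaller than this shift.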

How the results depend on the processing

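No paired analysis was possible because each group has 1 library, and for the same reason no library could be left out in turn. No called direction of the 39 genes reversed under any alternative run. In wild type the number lower in Cd73P, 4 as reported, was 1 with FPKM sum scaling, 2 at a 2-fold threshold and 2 without genes above their own upper bound. Under Ezh2-cKO it was 2 with median scaling, 2 with FPKM sum scaling, 2 at a 2-fold threshold and 1 without genes above their own bound. The median difference between fractions was 1.29 in wild type and 1.13 under Ezh2-cKO with a pseudocount of 0.1, and 0.87 and 0.81 with a pseudocount of 5. It was 1.45 and 1.27 with median scaling, 1.56 and 1.23 with FPKM sum scaling, 1.34 and 1.26 for an FPKM of at least 10, and 1.30 and 1.14 with no pseudocount. Between the Cd73N libraries 1 gene was higher at a 2-fold threshold, Tulp3, and the median was 0.17 with FPKM sum scaling. Between the Cd73P libraries 1 gene, Kif17, was higher with a pseudocount of 0.1. Under the alternatives that recompute a gene's own value (pseudocounts, scalings and the replaced library), 480 values of single genes stayed within 1.96 SE of the reported one and 335 did not. Scaling changed the sign of a member's difference in 1 to 5 of the 39 genes in each comparison.

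These alternatives were chosen after seeing the data: without genes above their own bound, 18 of 26 were higher in Cd73P in wild type, and without the 7 genes that overlap another locus, 22 of 32. Replacing the Cd73N library labelled Ezh2-cKO by the wild-type one gave 29 higher and 6 lower. The spread between animals is unknown, FPKM lay above its own bound in 15 of the 39 genes in at least 1 library, and the standard errors cover counting error only.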
